A study of Rattus norvegicus and Mus musculus with 24 samples.

Results

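The genes described here are 39 genes of the lysosome's digestive machinery: soluble hydrolases and their activator proteins, glycoproteins and channels of the lysosomal membrane, the transcription factors TFEB and TFE3, and the mannose 6-phosphate sorting proteins. They were chosen by name, without cathepsins and without the proton pump. All 39 are among the 17376 symbols of the mouse table, and 34 are among the 14931 symbols of the rat table. GM2A, MANBA, IDS, SGSH and HGSNAT were not analysed in rats. All 34 members in the rat table passed the filter on low counts, which left 11584 symbols for testing. The study used animals lacking Ctns, the gene of cystinosin, the lysosomal cystine exporter that is lost in nephropathic cystinosis. RNA was sequenced from 4 Ctns knockout (KO) and 4 control (WT) mice on a C57BL/6 background, and from 8 KO and 8 WT rats on a Sprague-Dawley background, with 1 library per animal, 24 in all. The loss is present in every cell of the KO animals, and the controls are littermates matched for age and gender. The labels give no treatment. The study's reporting summary gives the mice as female, used at several set ages, and which of these ages was sequenced is not given in the sources used here, nor are the sex and age of the sequenced rats. The labels name the tissue as kidney cortex and the cells as proximal tubule cells. Rat libraries carry numbers 17 to 24 or 25 to 32, with 4 KO and 4 WT rats in each range, and the labels do not say what these ranges stand for.

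Lysosomal hydrolases are made in the endoplasmic reticulum and tagged with mannose 6-phosphate in the Golgi. Receptors then carry them to endosomes, and they become active in the acidic lysosome, where each removes a particular bond from lipids, glycans or proteins. Inherited loss of single hydrolases causes lysosomal storage diseases. TFEB and TFE3 are basic helix-loop-helix factors that are held in the cytosol when mTORC1 is active and enter the nucleus on starvation or lysosomal stress, where they bind E-box type sites of the CLEAR network near lysosomal genes. Because their activity is set mostly by where the protein is, a transcript level of TFEB or TFE3 is not a measure of that activity. Proximal tubule cells take up and digest large amounts of filtered protein, and their lysosomes carry a heavy load.

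Libraries held between 19309371 and 44449845 reads in mice and between 24684097 and 40629873 in rats, counted over the listed genes. CTNS itself stood at 0.319 to 0.342 scaled units in KO mice against 0.824 to 1.03 in WT mice, a change of -0.52 on the log2(value + 1) scale (SE 0.03, limma adjusted p = 0.000898), which understates the change of low values. On the reads recovered from the table, its log2 ratio was -1.48 (SE 0.08, edgeR adjusted p = 1.09e-07). In rats it overlapped, at 16.8 to 22.2 CPM (counts scaled to the library total by TMM) in KO and 19.2 to 27.8 in WT (log2 change -0.22, SE 0.08, edgeR adjusted p = 0.0511), so the transcript level alone did not separate the rat genotypes. Within the ranges CTNS overlapped too. Its log2 change was -0.11 in rats 17 to 24 (SE 0.08, edgeR adjusted p = 0.514) and -0.32 in rats 25 to 32 (SE 0.11, edgeR adjusted p = 0.0391). The proximal tubule label was checked against its markers. These were abundant in mice, with a summed level of 297 to 324 scaled units in KO and 318 to 411 in WT, but distal nephron markers were abundant too, at 198 to 222 and 167 to 198, so the libraries were not of proximal tubule alone. In bulk tissue, fewer cells of a type and less RNA per cell cannot be told apart.

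The promoters of the rat members were searched for the E-box CACGTG, which TFEB and TFE3 are known to bind, since such sites are the textbook link between the transcription factors and the other members. Other letters were not searched, so a window without CACGTG is not shown to lack a site for these factors. RefSeq windows of the rat genome (build GRCr8, 250 bases before to 50 after the start site) matched 31 of the 39 members. HEXA, ARSA, ASAH1, PSAP, ARSB, HGSNAT, PPT1 and M6PR were not matched. The E-box CACGTG was present on either strand in 11 of the 31 member windows (35.5%), against 6.42% of 33469 windows of that length and 8.48% of the 12559 whose symbol is in the rat table. The full palindrome TCACGTGA, which contains that E-box, was present in 6 members (19.4%), namely LAMP1, GALC, CLN3, MCOLN1, IGF2R and GNPTG, against 0.777% of all windows and 1.31% of those in the rat table. These 5 promoters, chosen after their values were seen, belong to called members in KO rats and show how the letters differ among them: LAMP1, MCOLN1 and IGF2R hold the palindrome, GLB1 holds a single E-box with a T before it, and NEU1, the member that fell most in KO rats, holds no CACGTG. The called members LAMP2, MAN2B1 and GUSB also have a window without it. Capitals mark CACGTG together with a T before it or an A after it.
LAMP1 (chr16:83075014-83075313, minus strand): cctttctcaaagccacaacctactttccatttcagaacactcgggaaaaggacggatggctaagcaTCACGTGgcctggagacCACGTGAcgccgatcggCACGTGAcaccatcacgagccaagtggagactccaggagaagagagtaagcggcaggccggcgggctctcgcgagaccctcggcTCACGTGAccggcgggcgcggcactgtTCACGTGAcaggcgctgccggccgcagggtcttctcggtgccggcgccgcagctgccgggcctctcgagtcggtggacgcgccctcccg
MCOLN1 (chr12:6358008-6358307, plus strand): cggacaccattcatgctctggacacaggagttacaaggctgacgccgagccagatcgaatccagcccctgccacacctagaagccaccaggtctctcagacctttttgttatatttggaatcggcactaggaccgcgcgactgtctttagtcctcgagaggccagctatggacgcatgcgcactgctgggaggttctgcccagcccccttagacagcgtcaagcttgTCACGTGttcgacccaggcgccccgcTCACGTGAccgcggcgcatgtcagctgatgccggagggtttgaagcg
IGF2R (chr1:50526628-50526927, plus strand): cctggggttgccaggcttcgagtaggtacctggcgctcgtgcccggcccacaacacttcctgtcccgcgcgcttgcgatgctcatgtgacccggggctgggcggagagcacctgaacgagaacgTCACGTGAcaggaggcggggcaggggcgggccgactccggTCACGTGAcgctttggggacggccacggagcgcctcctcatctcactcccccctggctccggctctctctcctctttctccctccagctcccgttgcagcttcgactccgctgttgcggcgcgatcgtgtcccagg
GLB1 (chr8:122963468-122963767, plus strand): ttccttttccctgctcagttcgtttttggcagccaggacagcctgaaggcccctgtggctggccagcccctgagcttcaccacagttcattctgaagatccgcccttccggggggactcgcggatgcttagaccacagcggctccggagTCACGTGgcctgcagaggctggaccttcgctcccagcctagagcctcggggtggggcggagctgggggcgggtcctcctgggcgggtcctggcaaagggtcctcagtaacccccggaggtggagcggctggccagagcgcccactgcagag
NEU1 (chr20:3906334-3906633, minus strand): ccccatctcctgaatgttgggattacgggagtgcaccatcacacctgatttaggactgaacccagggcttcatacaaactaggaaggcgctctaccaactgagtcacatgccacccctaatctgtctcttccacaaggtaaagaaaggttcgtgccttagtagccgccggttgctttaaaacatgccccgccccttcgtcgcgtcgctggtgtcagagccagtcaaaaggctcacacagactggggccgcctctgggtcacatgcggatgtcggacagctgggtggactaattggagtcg
LAMP1 held 5 copies of CACGTG, beginning 183, 167, 150, 65 and 38 bases before the start site. In IGF2R the copies begin 125 and 85 bases before it, in GLB1 1 copy begins 100 bases before it, and in MCOLN1 1 copy begins 22 bases before and another 4 bases after it. The match is a description of letters and does not show binding. The sites were searched because they are known from lysosomal genes, so their excess over all windows is not separate evidence for that link. Of the 27 members with both a window and a rat test, the E-box was present in 4 of the 7 that fell in KO rats, in 0 of 1 that rose and in 6 of 19 that did not pass the test.

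The levels of the members in WT mice, per length, spanned 203-fold (see the plot of WT mouse levels). Levels are RPKM, the reads of a gene scaled to its exon length in the GRCm38 annotation (GENCODE vM21) and to the library total. LAMP1, the main glycoprotein of the lysosomal membrane, stood at 478 ± 26.6 RPKM (SD, n = 4), and PSAP, the precursor of the saposins that present sphingolipids to their hydrolases, at 446 ± 33.8. These neighbours did not differ beyond their spread. NEU1, the sialidase that trims sialic acid from glycoproteins, followed at 119 ± 16.3 and GM2A, the activator that lifts ganglioside GM2 to hexosaminidase, at 83.0 ± 11.8. TFEB stood at 6.06 ± 0.95 and TFE3 at 3.61 ± 0.375. The lowest were GLA, the alpha-galactosidase A lost in Fabry disease, at 2.51 ± 0.234, and NPC1, the lysosomal cholesterol exporter, at 2.36 ± 0.179. The median member stood at 19.4 against 3.42 for the median of 15298 symbols, and 36 of 39 members were above that median. In mouse gene models, 9 members share exon bases with another protein-coding gene, among them LAMP1, GLB1, HEXA, PPT1 and CLN3, GLB1 with a gene on the same strand and the others with genes on the opposite strand. Whether counting used strand is not given in the sources used here, so a share of their reads could belong to the neighbour.

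**Figure D1:**
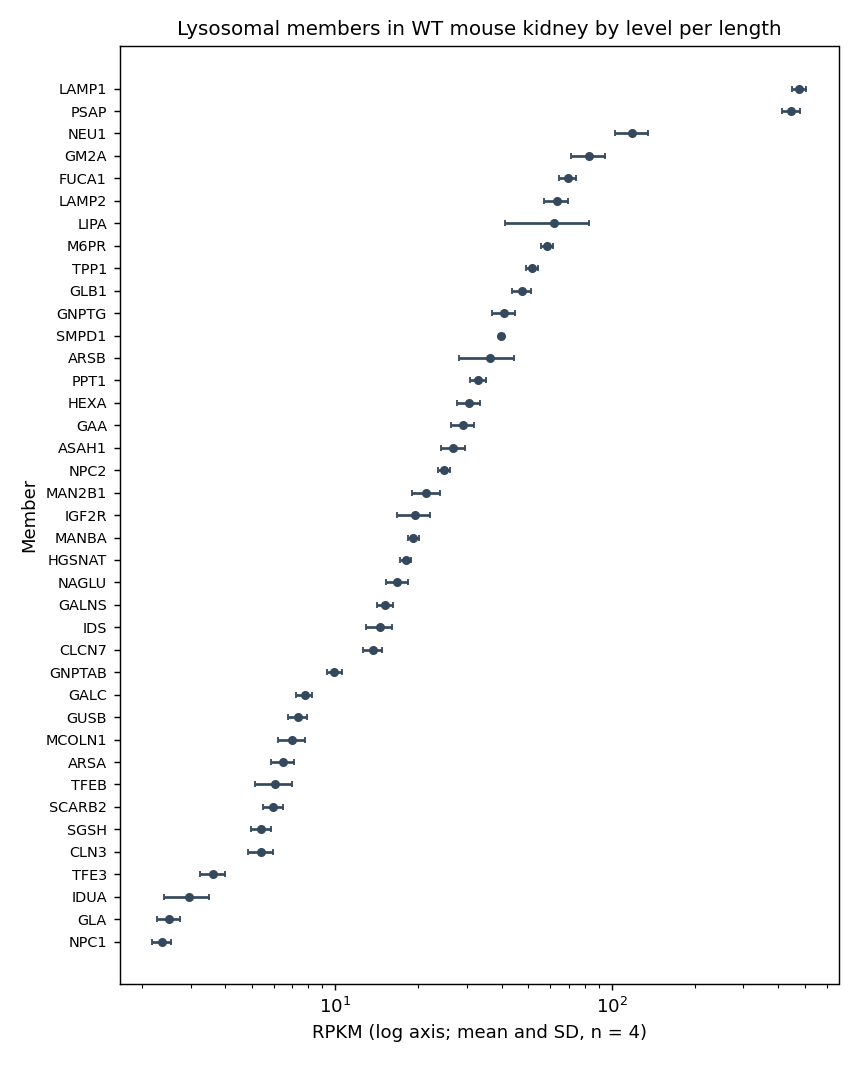
Level per length of the 39 members in the kidneys of 4 WT mice, in RPKM on a log axis (points: mean, bars: SD, n = 4). LAMP1 and PSAP stand at the top, NPC1 at the bottom, and TFEB and TFE3 in the lower part.

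In KO mice, none of the 39 members passed the test against WT (limma on log2(scaled value + 1), adjusted p under 0.05), where 4.32% of all 17376 symbols did. At an unadjusted p under 0.05, 7 members passed (17.9%, against 18.4% of all symbols), of which 6 were higher and 1 was lower. Of all symbols at that p, 2048 were higher and 1143 lower. Run on the reads recovered from the table, edgeR called 1 member (HEXA, higher, where it called 8.91% of all symbols) and DESeq2 called 2 (GLB1 and HEXA, both higher, where it called 9.63%). Each had 7 at an unadjusted p under 0.05, of which 4 were higher and 3 lower. The share of all symbols at that p by edgeR and DESeq2 is not given here, and the 18.4% is that of limma. The changes of the members ranged from -0.19 to 0.22 on the log2(value + 1) scale, with a median of 0.04 against 0 for all symbols. As a log2 ratio of recovered reads (edgeR), that of HEXA was 0.29 where it was 0.18 on the first scale, and that of TFEB -0.16 where it was -0.06. In scaled units, the 4 KO and 4 WT mice did not overlap in 3 members, and in 11.6% of all symbols. Which members overlap depended on the scaling. In RPKM, LAMP1 was at 450 to 501 in WT and 536 to 562 in KO mice, and GLB1 at 44.5 to 53.0 and 55.3 to 65.8. HEXA, CLCN7, NPC2, TPP1, PPT1, SMPD1, HGSNAT, GNPTAB and MCOLN1 were also higher in KO without overlap in RPKM, and no member was lower without overlap. The share of all symbols without overlap in RPKM is not given here. A scaled unit here is a gene's reads divided by the 75th percentile of its library, so these levels compare animals and not genes.

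HEXA, the alpha subunit of beta-hexosaminidase, which removes the terminal sugar of ganglioside GM2, was at 1.15, 1.46, 1.21 and 1.36 scaled units in WT mice and at 1.47, 1.61, 1.74 and 1.60 in KO mice. Every KO mouse was above every WT mouse by a narrow margin, and the log2 change was 0.18 (SE 0.05, limma adjusted p = 0.0943). GLB1, the lysosomal beta-galactosidase, was at 2.83, 3.44, 2.90 and 2.94 in WT and at 3.49, 3.83, 4.07 and 3.34 in KO mice. The groups overlapped, and the log2 change of 0.22 (SE 0.07) did not pass the test (limma adjusted p = 0.128). CLCN7, the chloride-proton exchanger of the lysosomal membrane, was at 1.54, 1.56, 1.66 and 1.38 in WT and at 1.80, 1.80, 1.68 and 1.71 in KO mice, without overlap (log2 change 0.12, SE 0.04, limma adjusted p = 0.138). M6PR, the cation-dependent mannose 6-phosphate receptor, was the member whose KO mice were all below the WT mice in scaled units. They stood at 4.71, 4.66, 4.94 and 4.78 against 5.51, 4.95, 5.05 and 5.22 (log2 change -0.10, SE 0.03, limma adjusted p = 0.187). In RPKM the groups of M6PR overlapped, at 54.9 to 62.5 in WT and 55.8 to 57.7 in KO mice.

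The membrane glycoproteins and the transcription factors are given here whatever their test. LAMP1 was at 25.4, 28.9, 25.8 and 28.6 in WT mice and at 29.3, 29.8, 30.9 and 28.8 in KO mice, which overlapped through the second WT mouse (log2 change 0.13, SE 0.06, limma adjusted p = 0.302). LAMP2, its close relative and a receptor of chaperone-mediated autophagy in one splice form, was at 11.2, 13.0, 12.8 and 14.5 in WT and at 13.5, 11.7, 14.0 and 11.9 in KO mice, fully interleaved (log2 change -0.01, SE 0.09, limma adjusted p = 0.966). TFEB was at 0.819, 0.624, 0.821 and 0.653 in WT and at 0.675, 0.672, 0.624 and 0.676 in KO mice. The WT mice fell into a higher and a lower pair, and the KO mice lay between them or at the lower pair (log2 change -0.06, SE 0.04, limma adjusted p = 0.587). TFE3 was at 0.735, 0.703, 0.781 and 0.622 in WT and at 0.667, 0.756, 0.775 and 0.786 in KO mice (log2 change 0.03, SE 0.03, limma adjusted p = 0.763). All KO values but the highest lay inside the WT range. By role, the point change was higher in KO for all 3 lipid genes (NPC1, NPC2, LIPA), for 7 of 9 sphingolipid genes (HEXA and GLB1 among them) and for 6 of 8 glycosaminoglycan hydrolases. It was lower for 4 of the 5 glycogen and glycoprotein hydrolases, and no member passed the test in any of these groups. Of all 17376 symbols, 10020 had a higher point change in KO.

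**Figure D2:**
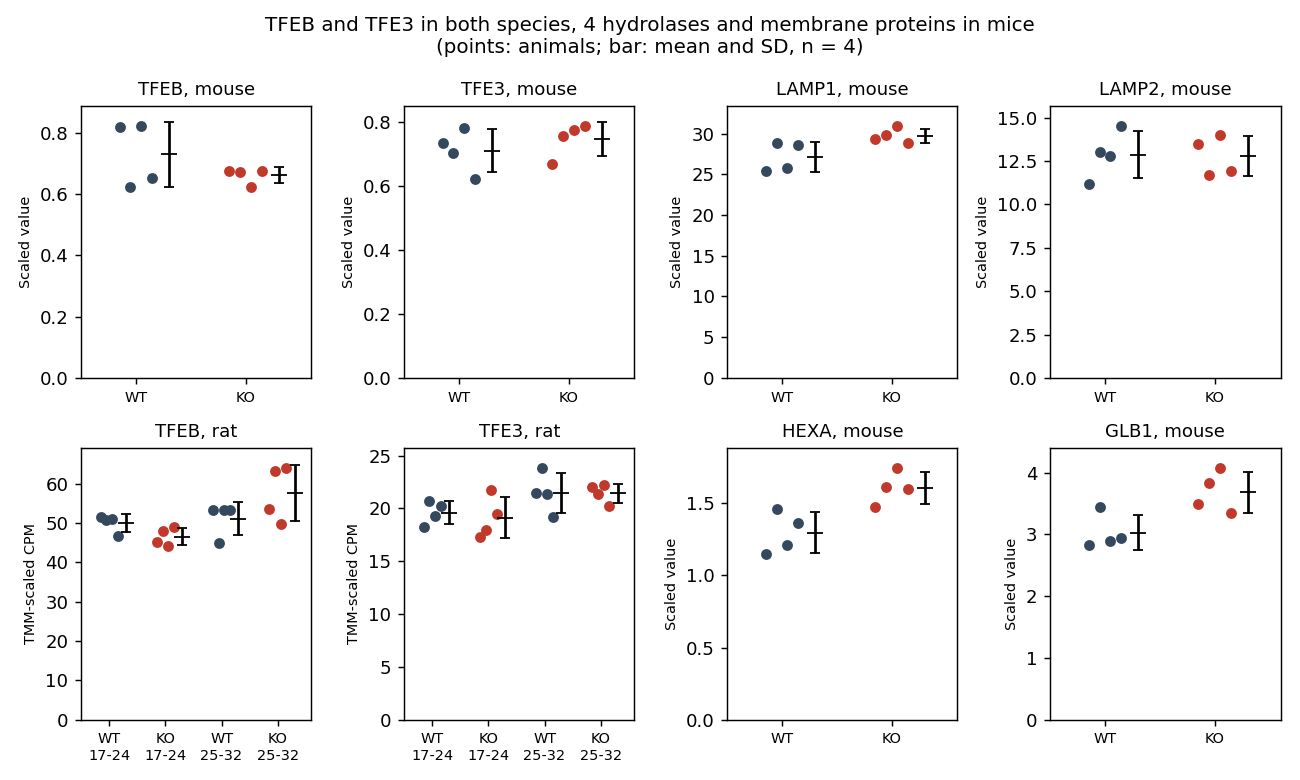
TFEB, TFE3, LAMP1, LAMP2, HEXA and GLB1 in each mouse (scaled value), and TFEB and TFE3 in each rat by genotype and number range (TMM-scaled CPM), with the mean and SD of 4 animals beside the points. KO and WT overlap in every panel but that of HEXA in mice.

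In KO rats, 10 of the 34 tested members passed the test (edgeR quasi-likelihood, Benjamini-Hochberg adjusted p under 0.05), a share of 29.4% beside 27.5% of all 11584 symbols, so members were called about as often as other genes. Of these, 7 fell (20.6%, against 12.3% of all symbols) and 3 rose (8.82%, against 15.2% of all symbols). The median change of the members was -0.02, equal to that of all symbols. The genes that fell were LAMP1, LAMP2, GLB1, MAN2B1, NEU1, MCOLN1 and IGF2R, and those that rose were GUSB, PPT1 and M6PR. The rats of the 2 genotypes did not overlap in NEU1 and PPT1, and in 5.84% of all symbols. Values are TMM-scaled CPM, and the SE of a rat change is that implied by the F statistic.

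**Figure D3:**
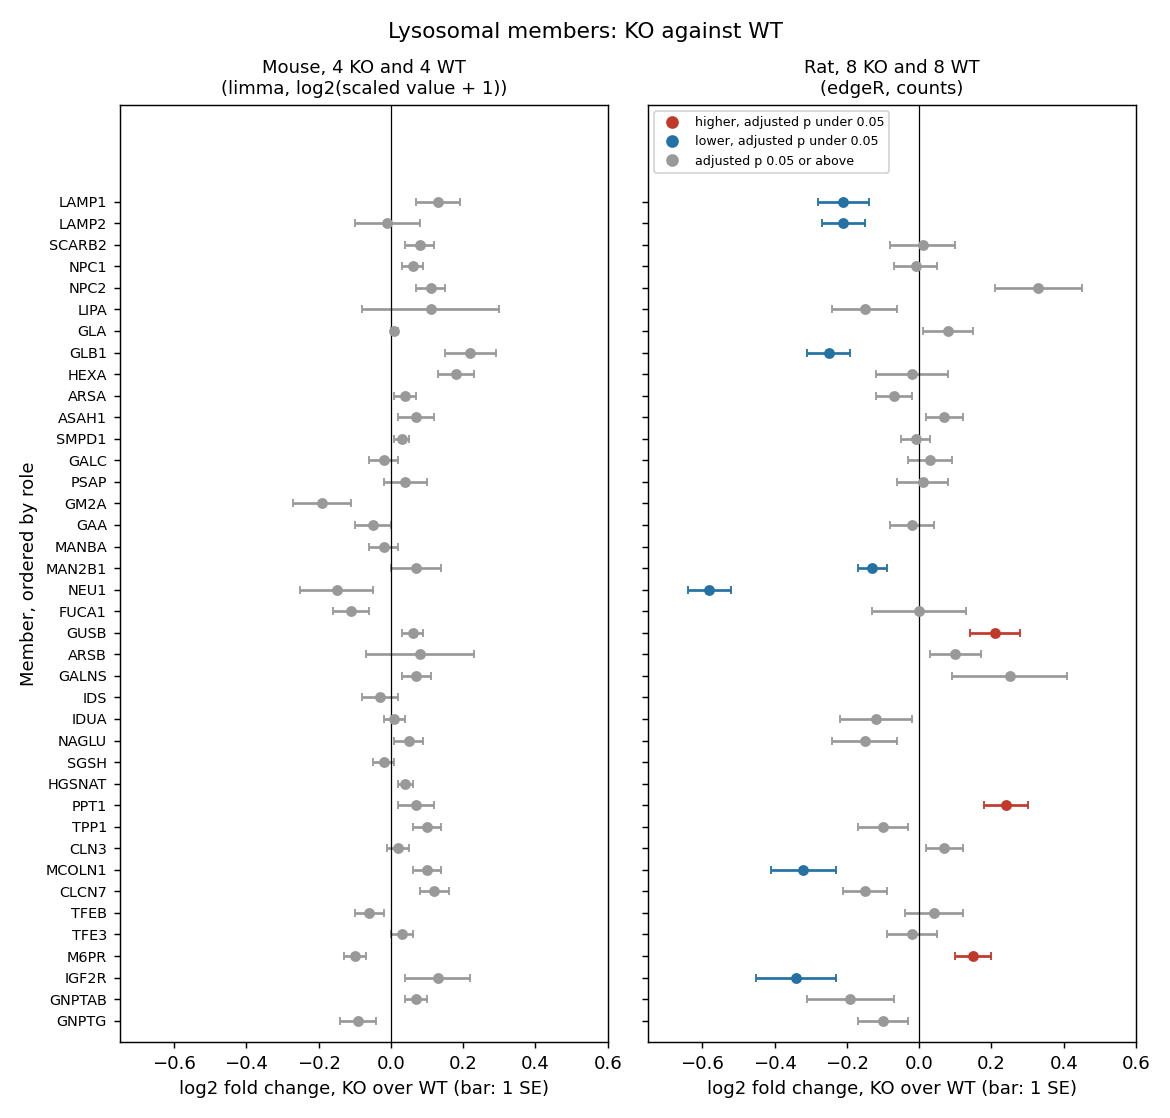
Change of KO over WT with its SE for each member, ordered by role, in mice (left, a difference on the log2(value + 1) scale, limma) and rats (right, a log2 ratio, edgeR), so that the sizes in the panels are not on 1 scale. In mice all members are within 0.22 of 0 and limma calls none, while in rats 7 are called lower and 3 higher, with NEU1 at -0.58 farthest from 0.

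Both LAMP genes fell in KO rats. LAMP1 ran from 1505 through a median of 1838 to 2055 CPM in WT rats and from 1466 through 1535 to 1675 in KO rats. The groups overlapped in the lower part of the WT range, and the log2 change was -0.21 (SE 0.07, edgeR adjusted p = 0.0306). LAMP2 ran from 252 through 304 to 354 in WT and from 229 through 265 to 286 in KO rats, with most KO rats below most WT rats (log2 change -0.21, SE 0.06, edgeR adjusted p = 0.0181). SCARB2, also known as LIMP-2, which carries beta-glucocerebrosidase to lysosomes, had a change of 0.01 (SE 0.09, edgeR adjusted p = 0.963). Of the lipid genes none passed the test. NPC2, the soluble partner that hands cholesterol to NPC1, was at 110 to 143 CPM in WT and at 117 to 207 in KO rats, and its change of 0.33 (SE 0.12) had an edgeR adjusted p of 0.0539. DESeq2 called it (adjusted p = 0.0401), as did edgeR with number range as covariate (change 0.30, adjusted p = 0.00479).

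Among the sphingolipid hydrolases and activators, GLB1 fell and 7 others were tested and not called. GLB1 ran from 423 through 476 to 529 CPM in WT and from 368 through 406 to 450 in KO rats, with a small overlap (log2 change -0.25, SE 0.06, edgeR adjusted p = 0.00544). The other members of the group (GLA, HEXA, ARSA, ASAH1, SMPD1, GALC and PSAP) had changes between -0.07 and 0.08.

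NEU1 had the largest change of all members in KO rats. It ran from 180 through 202 to 224 CPM in WT rats and from 123 through 139 to 148 in KO rats. Every KO rat was below every WT rat, and the log2 change was -0.58 (SE 0.06, edgeR adjusted p = 1.93e-06). NEU1 acts in a complex with beta-galactosidase and the protective protein cathepsin A, so the gene with the largest fall and GLB1 encode partners. MAN2B1, the lysosomal alpha-mannosidase, also fell, from 253 through 273 to 295 in WT to 235 through 249 to 262 in KO rats (log2 change -0.13, SE 0.04, edgeR adjusted p = 0.026), with overlap. GAA, the acid alpha-glucosidase that digests glycogen, and FUCA1, the alpha-fucosidase, had changes of -0.02 (SE 0.06) and 0.00 (SE 0.13).

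GUSB, the beta-glucuronidase that acts late in glycosaminoglycan breakdown, was the called member of its group. It ran from 31.9 through 34.5 to 39.2 CPM in WT and from 34.4 through 40.2 to 46.3 in KO rats, with overlap (log2 change 0.21, SE 0.07, edgeR adjusted p = 0.0324). ARSB, GALNS, IDUA and NAGLU were not called, with changes from -0.15 to 0.25. PPT1, the thioesterase that removes palmitate from proteins, rose in KO rats, from 79.2 through 82.9 to 86.6 in WT to 86.9 through 97.0 to 109 in KO rats. The groups did not overlap, although the lowest KO rat was just above the highest WT rat (log2 change 0.24, SE 0.06, edgeR adjusted p = 0.00443). TPP1, a tripeptidyl peptidase, had a change of -0.10 (SE 0.07, edgeR adjusted p = 0.257).

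MCOLN1, the calcium channel of the lysosomal membrane whose opening can activate TFEB through calcineurin, ran from 106 through 139 to 156 CPM in WT and from 97.1 through 103 to 119 in KO rats. The WT rats spread widely and the KO rats lay at their lower end (log2 change -0.32, SE 0.09, edgeR adjusted p = 0.0112). Within each number range the genotypes did not overlap in MCOLN1. It was at 106 to 132 CPM in WT and 97.1 to 103 in KO rats 17 to 24, and at 146 to 156 and 103 to 119 in rats 25 to 32. Of all symbols, 13.7% did not overlap in rats 17 to 24 and 40.3% in rats 25 to 32. CLCN7 was not called (-0.15, SE 0.06, edgeR adjusted p = 0.0618), nor was CLN3, a lysosomal membrane protein lost in Batten disease (0.07, SE 0.05, edgeR adjusted p = 0.313). The transcription factors did not pass the test. TFEB ran from 44.8 through 51.2 to 53.3 CPM in WT and from 44.2 through 49.3 to 63.9 in KO rats (log2 change 0.04, SE 0.08, edgeR adjusted p = 0.721). The KO rats spread more widely on both sides of the WT median. TFE3 ran from 18.2 through 20.4 to 23.8 in WT and from 17.3 through 20.8 to 22.2 in KO rats, with full overlap (log2 change -0.02, SE 0.07, edgeR adjusted p = 0.865).

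The mannose 6-phosphate receptors moved in opposite directions in KO rats. M6PR, the smaller cation-dependent receptor, rose, from 56.6 through 61.8 to 68.6 CPM in WT to 64.2 through 68.8 to 75.1 in KO rats (log2 change 0.15, SE 0.05, edgeR adjusted p = 0.0467), a call that was lost without the filter on low counts (edgeR adjusted p = 0.0623). IGF2R, the larger receptor, which also carries insulin-like growth factor 2 from the cell surface to lysosomes, fell, from 504 through 653 to 788 in WT to 399 through 525 to 588 in KO rats (log2 change -0.34, SE 0.11, edgeR adjusted p = 0.0375). Both overlapped between genotypes over all rats. Within each number range M6PR did not overlap. It was at 56.6 to 63.1 CPM in WT and 64.2 to 66.2 in KO rats 17 to 24, and at 58.9 to 68.6 and 71.5 to 75.1 in rats 25 to 32. GNPTAB and GNPTG, subunits of the phosphotransferase that makes the sorting tag, were not called, with changes of -0.19 (SE 0.12) and -0.10 (SE 0.07). The calls of LAMP1, MAN2B1, GUSB, M6PR and IGF2R were lost on leaving out single rats, in 7, 5, 6, 7 and 8 of 16 cases, that of LAMP2 in 1, and those of NEU1, GLB1, PPT1 and MCOLN1 in 0.

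More members, and more of all symbols, were called for genotype in rats 25 to 32 than in rats 17 to 24. Such counts do not test whether a change differs between the ranges. In rats 17 to 24 only NEU1 was called among the 34 members (2.94%, against 7.26% of all symbols). In rats 25 to 32, 11 members were called (32.4%, against 43.8%), of which 4 were higher (11.8%, against 21.8%) and 7 lower (20.6%, against 22.1%). The lower ones were LAMP1, LAMP2, GLB1, NEU1, MCOLN1, IGF2R and GNPTAB, and the higher ones GUSB, PPT1, M6PR and NPC2. The call of M6PR was lost with DESeq2, with DESeq2 size factors, without the filter and in 7 of 8 fits that left out 1 rat (kept without WT rat 27), and that of GNPTAB in 5 of 8 (kept without KO rat 26 or 30 or WT rat 31). Of the 10 members called over all rats, 9 had the larger change in rats 25 to 32, and all 10 had the same sign in both ranges. NEU1 was called in both, at 180 to 224 CPM in WT and 137 to 148 in KO rats of the first range (log2 change -0.49, SE 0.06, edgeR adjusted p = 0.000648) and at 193 to 220 and 123 to 145 in the second (-0.67, SE 0.07, edgeR adjusted p = 4.62e-05).

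**Figure D4:**
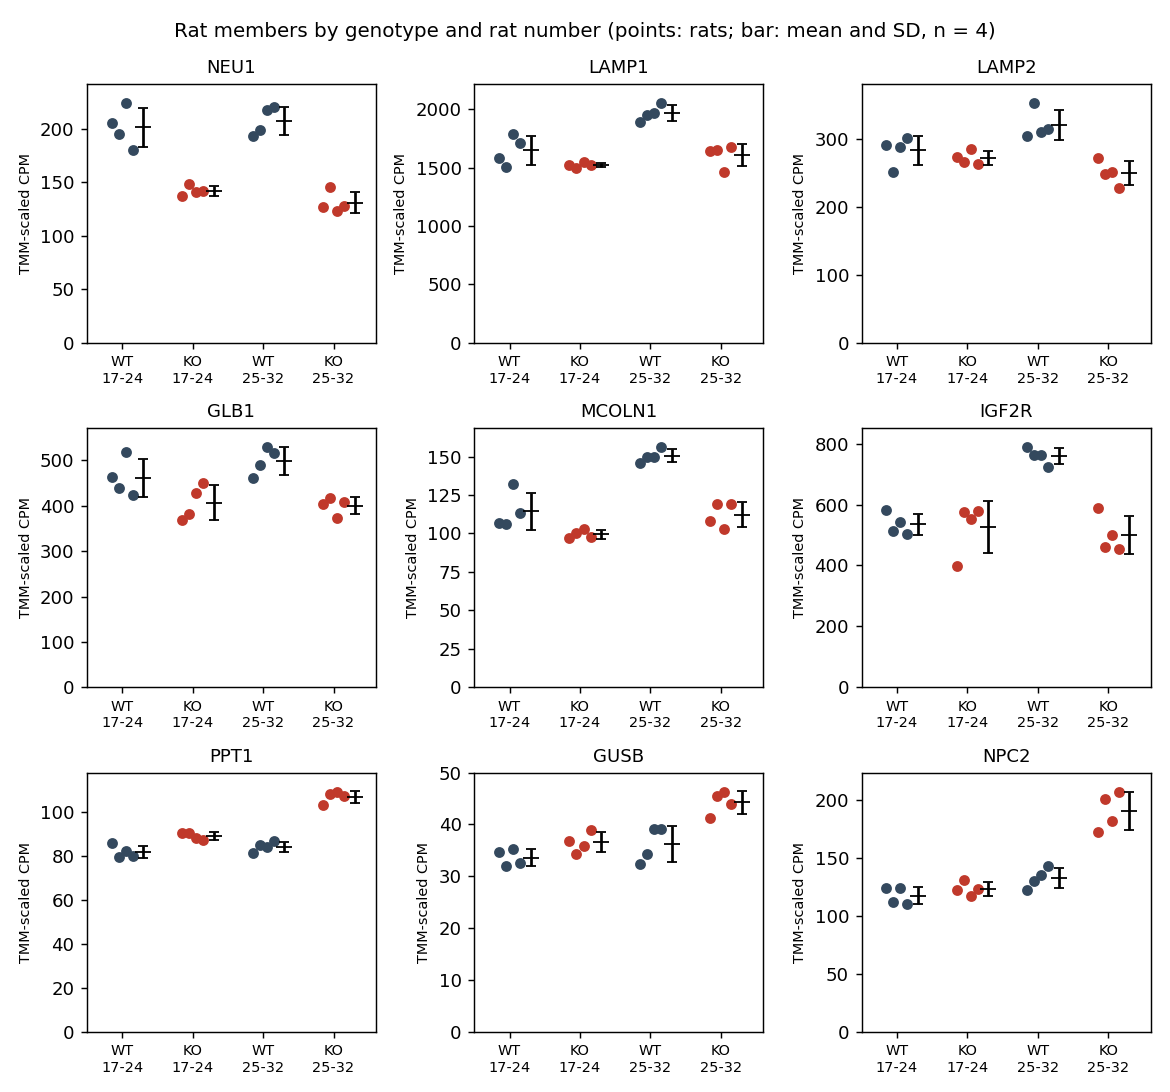
Values of 9 members in each rat by genotype and number range (TMM-scaled CPM, axes from 0, mean and SD of 4 rats beside the points). NEU1 is lower in KO in both ranges, and in rats 25 to 32 the genotypes do not overlap in any panel, as in 11 of all 34 members (32.4%) and 40.3% of all symbols.

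The genotype by range term, which tests whether the genotype difference differs between the ranges, called 4 of 34 members (11.8%, against 15.2% of all symbols). For the other members no such difference was shown. IGF2R was at 504 to 581 CPM in WT and 399 to 578 in KO rats 17 to 24, and at 725 to 788 and 453 to 588 in rats 25 to 32, where the groups did not overlap. Its change went from -0.02 to -0.60, a difference of -0.58 (SE 0.15, edgeR adjusted p = 0.016). NPC2 was at 110 to 124 in WT and 117 to 131 in KO rats 17 to 24, and at 122 to 143 and 172 to 207 in rats 25 to 32, so that every KO rat of the second range was above all 12 other rats. Its change went from 0.07 to 0.52, a difference of 0.46 (SE 0.10, edgeR adjusted p = 0.00604). PPT1 went from 0.13 to 0.34, a difference of 0.22 (SE 0.06, edgeR adjusted p = 0.0249), a call lost in 4 of 16 fits that left out 1 rat (KO rat 22, 24 or 28 or WT rat 17). LAMP2 went from -0.05 to -0.36, a difference of -0.30 (SE 0.10, edgeR adjusted p = 0.0445), and this call was lost in 12 of 16 fits that left out 1 rat. NEU1 was not called by this term.

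**Figure D5:**
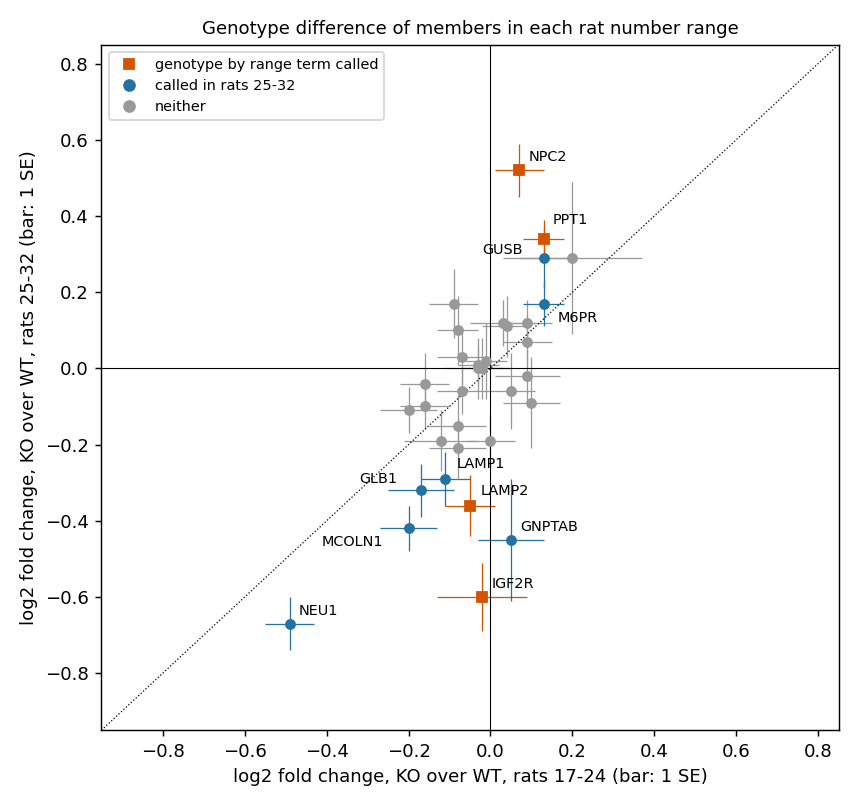
Log2 fold change of KO over WT for each member in rats 17 to 24 (horizontal) and in rats 25 to 32 (vertical), with SE and the line of equal change. NEU1 is low in both, while NPC2, PPT1, LAMP2 and IGF2R, called by the genotype by range term, lie off the line.

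With genotype in the fit, 20 of 34 members differed between rats 25 to 32 and rats 17 to 24 (58.8%, against 41.5% of all symbols). Of these, 18 were higher in rats 25 to 32 (52.9%, against 22.7%) and 2 were lower (5.88%, against 18.9%), with a median change over members of 0.15 against 0.01 for all symbols. Lysosomal genes outside the members were called closer to the share of all symbols. Of 23 further hydrolases 10 were called (8 higher, 2 lower, median change 0.08). Of 24 further lysosomal membrane proteins 10 were called (6 higher, 4 lower, median change 0.06). The higher ones covered every role. FUCA1 rose by 0.46 (SE 0.06, edgeR adjusted p = 2.44e-05), with 198 to 211 CPM in the 4 WT rats 17 to 24 and 245 to 328 in the 4 WT rats 25 to 32. The KO rats stood at 199 to 208 and at 243 to 304, so the shift of FUCA1 was present in both genotypes. HEXA rose by 0.36 (SE 0.05, edgeR adjusted p = 3.7e-05), from 374 to 453 in WT rats of the first range to 468 to 539 in those of the second. TFEB was higher by 0.17 (SE 0.07, edgeR adjusted p = 0.0475) and TFE3 by 0.15 (SE 0.06, edgeR adjusted p = 0.0438). The calls of TFEB and TFE3 were lost without the filter on low counts. They were also lost in 11 (TFEB) and 13 (TFE3) of 16 fits that left out 1 rat. In such fits the call of PSAP was lost in 8, that of GALNS in 7 and that of SMPD1 in 1. All 18 had the higher mean in rats 25 to 32 in both genotypes, but not by like amounts. The log2 ratio of range means was 0.03 in WT and 0.31 in KO rats for TFEB, and 0.26 and 0.07 for TPP1, and neither was called by the genotype by range term. It was 0.04 and 0.26 for PPT1, and 0.17 and 0.63 for NPC2, which that term did call. The lower ones were LIPA, the acid lipase that splits cholesteryl esters, at -0.27 (SE 0.07), and IDUA, the alpha-iduronidase of heparan and dermatan sulphate breakdown, at -0.36 (SE 0.05). The labels name no difference between the ranges, and what this shift goes with was not tested.

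Mouse and rat changes were compared in 1 model over all 24 libraries, after the rat reads had been put on the scale of the mouse values. The species by genotype term called 3 of 34 members (8.82%, against 3.17% of 11216 symbols). The GLB1 change was 0.22 in mice and -0.25 in rats in the separate fits, and the term was -0.41 (rat minus mouse, SE 0.09, limma adjusted p = 0.0117). The separate changes are on unlike scales, a difference of log2(value + 1) in mice and a log2 ratio in rats. The term was fitted on rescaled values, so it is not the difference of the separate changes. CLCN7 had a change of 0.12 in mice and -0.15 in rats (term -0.17, SE 0.05, limma adjusted p = 0.0447), and M6PR had -0.10 in mice and 0.15 in rats (term 0.21, SE 0.05, limma adjusted p = 0.0307). The CLCN7 term lost its call in 17 of 24 fits that left out 1 animal, and the M6PR term in 5. Of the 10 members called in rats, 4 had a mouse point change in the same direction and 6 in the opposite one. NEU1 was at 7.68, 10.9, 9.09 and 10.1 scaled units in WT mice and at 8.0, 9.12, 7.66 and 8.71 in KO mice, overlapping (log2 change -0.15, SE 0.10, limma adjusted p = 0.541), and its species term was not called.

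Other genes of the same pathway were counted from lists of related lysosomal genes, to be read against the 4.32% of all symbols called in mice and 27.5% in rats. Of 25 further hydrolases in mice, CTBS, a chitobiase, fell by 0.11 on the log2 scale and SCPEP1, a serine carboxypeptidase, rose by 0.37 (SE 0.07, limma adjusted p = 0.0423). Of 23 tested in rats, DNASE2, the acid DNase, rose by 0.59 and 3 fell, namely ACP2 (-0.49), SCPEP1 (-0.28) and AGA (-0.13). Of 24 further membrane proteins in rats, 4 rose and 1 fell, led by MFSD12 (0.78, SE 0.17), which is needed for cysteine import into lysosomes and melanosomes, and by SLC29A3 (-0.37, SE 0.09), a nucleoside transporter. Of 26 in mice, limma called CTNS alone, and on recovered reads edgeR called 2 and DESeq2 3, all lower. Among TFEB's relatives and regulators, 0 of 10 were called in mice (limma, 1 at an unadjusted p under 0.05, and 0 called or at that p by edgeR or DESeq2 on recovered reads) and 3 of 7 in rats. These were FNIP2 (-0.64, SE 0.22) and its partner FLCN (-0.18, SE 0.05), which together act on the Rag GTPases that hold TFEB at the lysosome, and RRAGD (0.25, SE 0.09), one of those GTPases. Of the 9 sorting partners tested in rats, VPS35, the retromer core that returns mannose 6-phosphate receptors to the Golgi, fell by 0.25 and GGA1 fell by 0.13, and the other 7 were not called.

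Markers of other cells moved with genotype and with the rat ranges. In mice, 11 of 18 macrophage markers rose in KO, with a summed level of 6.37 to 7.47 scaled units against 4.35 to 4.59, and 4 of 7 fibroblast markers rose. Of 11 proximal tubule markers limma called 0 (2 at an unadjusted p under 0.05, both lower), edgeR 1 and DESeq2 4, all of these lower. Of all symbols in mice, limma called 4.32%, edgeR 8.91% and DESeq2 9.63%. In rats, where 27.5% of all symbols were called, 14 of 17 macrophage and 6 of 7 lymphocyte markers rose in KO. There 6 of 7 fibroblast and 2 of 6 distal nephron markers rose, and 6 of 10 proximal tubule markers fell. Summed macrophage markers stood at 337 to 373 CPM in KO and 212 to 281 in WT rats 17 to 24, and at 589 to 809 and 310 to 375 in rats 25 to 32. Summed proximal tubule markers stood at 10679 to 11186 in KO and 12248 to 14565 in WT rats 17 to 24, and at 8224 to 10071 and 15931 to 18247 in rats 25 to 32. Summed podocyte markers stood at 775 to 844 CPM in KO and 788 to 938 in WT rats 17 to 24, and at 462 to 575 and 571 to 695 in rats 25 to 32. Endothelial markers stood at 422 to 447 and 432 to 456 in the first range, and at 311 to 340 and 390 to 434 in the second. Distal nephron markers stood at 4477 to 4901 and 4181 to 4949, and at 4314 to 5228 and 3237 to 3912. No marker in these lists was without reads. These shifts run alongside the larger member changes of rats 25 to 32, and their part in the changes of NPC2, GUSB, PPT1, IGF2R, LAMP2 or any other member was not tested.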

How the data were processed

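Stranded mRNA libraries from kidney were sequenced in paired reads by the authors. The labels name kidney cortex and describe RNA from microdissected proximal tubules, and the study's methods name cortex. The submitters' processing notes list bcl2fastq 2.20, STAR 2.7.3, DESeq2 1.24.0, R 3.6.1 and the builds mm10 and rn5, without roles; the annotation, the counting tool and the mapping to human-style symbols are not given in the sources used here. The deposited mouse values are a signal in which reads plus 0.5 are set relative to the 75th percentile within each library, and 99% gave whole reads within 0.01. The deposited rat values are estimated counts with 0.167 added, 97.7% whole within 0.01, and were rounded after taking that off. Libraries of a group differed beyond sampling noise in all 12 mouse and 56 rat pairs (chi-square per degree of freedom at least 12.3 and 8.6). Nothing beyond 1 library per animal is said of replication.

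Mouse values were tested by limma 3.58.1 (trend and robust) on log2(value + 1) without a filter; such a fold change understates that of low genes. Rat counts were tested by edgeR 4.0.16 (quasi-likelihood, TMM, filterByExpr by genotype) in R 4.3.3, over all rats, within each number range, and with range and genotype by range terms. Adjusted p-values are Benjamini-Hochberg over all symbols of a fit, with a threshold of 0.05. The species by genotype term was fitted by limma over symbols in both species. Alternatives were a pseudocount of 0.1, a mean value of at least 0.1, edgeR or DESeq2 1.42.0 on recovered reads, DESeq2 size factors, no filter, range as covariate, and leaving out each animal. The scripts were tested on simulated data. The members, lists and marker lists were chosen with earlier results of these data known. Named are all members called in mice, the 10 members called over all rats, TFEB, TFE3, LAMP1 and LAMP2, and members called by the interaction or species term. Further members chosen after their values were seen are named as examples.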

Additional observations from a re-analysis of the deposited data

Results flagged for a closer look

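In 6 of 146 groups of animals checked, 1 animal stood apart from the rest of its group by Dixon's criterion, which chance alone gives in about 1 group in 20. In KO mice these were MANBA in mouse 3, at 2.64 scaled units against 2.81 to 2.83 in the others, NAGLU in the same mouse, at 0.915 against 1.04 to 1.06, HGSNAT in mouse 8, at 1.28 against 1.33 to 1.34, and TFEB in mouse 6, at 0.624 against 0.672 to 0.676. GUSB in WT mouse 4 was at 0.62 against 0.734 to 0.756. CLN3 in WT rat 23 was at 21.2 CPM against 24.2 to 26.6 in the other WT rats. Each of these was the lowest of its group.

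The genotype difference was tested to differ between rats 25 to 32 and rats 17 to 24 in LAMP2 (-0.30), NPC2 (0.46), PPT1 (0.22) and IGF2R (-0.58 on the log2 scale), and between rats and mice in GLB1 (-0.41), CLCN7 (-0.17) and M6PR (0.21). Macrophage and proximal tubule marker sums differed between the genotypes most in rats 25 to 32, and their part in these terms was not tested.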

How the results depend on the processing

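No paired analysis was possible because the groups share no animal numbers. Of 835 results recomputed under an alternative, 682 kept their direction and side of the threshold or stayed within 1.5 times a count. In mice, the count of members called higher went from 0 to 1 with a mean value of at least 0.1 (HEXA, limma adjusted p = 0.0366, where 6.51% of all symbols were called) and with edgeR on recovered reads, to 2 with DESeq2 on recovered reads, and to 1 without WT mouse 2. The genotype by range term lost LAMP2 with DESeq2 size factors (1 member called lower, adjusted p = 0.0526). The species term had 0 higher and 1 lower with a pseudocount of 0.1 (2.25% of all symbols called) and 1 lower with edgeR on reads (2.46%). With range as covariate, 13 of 34 members were called in rats (38.2%, against 38.4% of all symbols), the 10 called without it and CLCN7, NAGLU and NPC2. The cause of these shifts was not tested. Leaving out 1 animal at a time gave 0 to 1 members called higher in mice, 1 to 4 higher and 4 to 8 lower in rats, 3 to 4 higher and 6 to 8 lower in rats 25 to 32, 1 to 3 in each direction for the genotype by range term, 14 to 18 higher and 2 to 4 lower between ranges, and 0 to 1 higher and 1 to 4 lower for the species term. Calls over all symbols moved in the same fits. They ran from 352 to 683 in mice, 2536 to 3478 in rats and 3946 to 5242 in rats 25 to 32. For the genotype by range term they ran from 1019 to 2389, between ranges from 4117 to 5573, and for the species term from 181 to 478. In rats, 4 members were called lower without KO rat 18 or 32 or WT rat 29 or 31, and 1 was called higher without KO rat 26, 28 or 30 or WT rat 19 or 23; between ranges, 4 were lower without WT rat 27. The range-term count fell to 1 lower without KO rat 18, 20, 22, 24, 28 or 32 or WT rat 17, 19, 25, 27 or 29, and to 1 higher without KO rat 22, 24 or 28 or WT rat 17. The species term had 4 lower without WT mouse 2, 0 higher without KO mouse 3, 5 or 8 or WT mouse 1 or 7, and 1 lower in 16 fits, without any of those 5 mice or 11 other animals. Uncalled changes turned direction for LAMP2 in mice (-0.07 to 0.05) and for TFEB (0.00 to 0.09) and TFE3 (-0.04 to 0.03) in rats. The member with the fewest reads averaged 0.178 scaled units in mice and 4.21 CPM in rats.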
